A study of Drosophila melanogaster with 12 samples.

Results

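The genes described here were 7 regulators of the unfolded protein response (UPR) and the integrated stress response in Drosophila melanogaster: the sensors Ire1, PEK, Gcn2 and Atf6, the transcription factors crc and Xbp1, and the phosphatase subunit PPP1R15. They were taken from a list of named regulators, and the counts of every transcript that the annotation assigned to each symbol were summed. All 7 were among the 14405 genes obtained by summing, 12759 of which were protein-coding, and all 7 averaged 10 counts or more in RNA-Seq and in Ribo-Seq alike. Whole female flies were measured by RNA-Seq and by Ribo-Seq, in which RNA shielded by ribosomes from nuclease digestion is sequenced, the fragments being called footprints here. The wild-type flies were White Dahomey, and the mutants, written Polr3D EY/+, carried the dC53EY22749 P-element insertion, as heterozygotes according to the study's methods, in Polr3D, the gene of a Pol III (RNA polymerase III) subunit. The labels give no age for these flies and say that cycloheximide was used for the footprint samples. Of the 4 groups, wild-type RNA-Seq had 2 libraries in the table and the other groups had 3 each.

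The UPR is the response of a cell to misfolded protein in the endoplasmic reticulum (ER). Ire1 and PEK, the fly PERK, are kinases of the ER membrane, Ire1 also being the nuclease that cuts Xbp1 mRNA, and Atf6 is a membrane-bound transcription factor that is released by cleavage. PEK and the cytosolic kinase Gcn2, which senses uncharged tRNA, both phosphorylate eIF2alpha, which lowers general initiation while favouring translation of crc, the fly ATF4, and PPP1R15 directs a phosphatase to reverse that mark. Because mRNAs of this pathway are known to be controlled at translation and, for Xbp1, at splicing, RNA, footprints and transcript usage were described separately.

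Each value below in CPM, the usual scaling of counts to a common library size, is relative to the counts on protein-coding genes of the same library. The Ribo-Seq libraries held 1127599 to 3192166 protein-coding counts, 1.90% to 3.67% of their totals, and the RNA-Seq libraries held 24299908 to 28718489, at least 99.0% of theirs. The members therefore rested on 955 to 31480 RNA counts per library but on only 17 to 518 footprint counts. Polr3D RNA, which checks the genotype labels, was at 51.7 and 63.6 CPM in wild-type flies and at 29.6 to 30.5 CPM in the mutants, a log2 change of -0.92 ± 0.25 (SE, DESeq2 adjusted p = 0.029). Yolk protein transcripts of the female fat body summed to 19540 to 27887 CPM in RNA-Seq, and the male marker bam, also expressed in the female germ line, was at 21.3 to 29.8 CPM. The other male markers, Acp36DE, Acp26Aa, SP and Mst98Ca, were at 0 or 1 count in every RNA-Seq library except mutant replicate 1, in which Acp36DE reached 341 counts. In Ribo-Seq, Acp36DE had 37 counts in wild-type replicate 2, 9 and 18 in mutant replicates 2 and 3, and 0 elsewhere. Ovary markers, 4 of 5 in the table, summed to 9336 to 10918 CPM in wild-type and 9864 to 12310 CPM in mutant RNA-Seq. In Ribo-Seq they summed to 12604 to 15228 CPM and 15308 to 17940 CPM, where the genotypes did not overlap. Of 7624 single genes, 12.1% did not overlap between genotypes in Ribo-Seq. The ovary markers differed in direction, with log2 footprint changes of 0.29 for Cp36, 0.23 for Cp38, 0.12 for Vm26Ab and -0.82 for osk. None of these footprint changes was called at a DESeq2 adjusted p under 0.1. The part of these markers in the results below was not tested. No member was called between genotypes with the RNA-Seq library of mutant replicate 1 or without it. As none was called with it, leaving it out cannot show the part of the male markers. In whole flies, fewer cells of a type and less RNA per cell cannot be told apart.

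Ire1 RNA was at 34.8 and 50.4 CPM in wild-type replicates 1 and 2, and at 45.8, 36.2 and 43.2 CPM in mutant replicates 1 to 3. Ire1 footprints were at 34.1, 32.8 and 47.3 CPM in the wild-type libraries and at 35.1, 32.0 and 35.3 CPM in the mutant ones. The genotypes overlapped in both assays. PEK RNA was at 48.7 and 77.7 CPM in wild-type flies and at 70.9, 50.9 and 71.0 CPM in mutants. PEK footprints were at 33.4, 27.5 and 28.2 CPM in wild-type flies and at 29.8, 26.9 and 20.2 CPM in mutants. The lowest footprint value of PEK was mutant replicate 3, and the remaining mutant values lay within the wild-type range or just under it.

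The cytosolic sensor Gcn2 had RNA at 37.9 and 57.7 CPM in wild-type flies and at 47.7, 33.3 and 51.3 CPM in mutants. Its footprints were at 35.4, 27.5 and 24.4 CPM in wild-type flies and at 21.9, 21.9 and 33.6 CPM in mutants, so that mutant replicate 3 lay among the wild-type values. Exons of Gcn2 and Ire1 overlap PNPase and MICU3 on the opposite strand, and whether counting used strand is not given in the sources used here. Exons of crc overlap CG46314 on the same strand, and those of Atf6 overlap transposable elements on both strands. The part of these overlaps in the values of the members was not tested. Atf6 RNA was at 127 and 75.7 CPM in wild-type flies and at 79.7, 129 and 82.6 CPM in mutants. Its footprints were the scarcest of the members in counts, at 11.4, 23.1 and 13.0 CPM in wild-type flies and at 16.7, 14.1 and 15.98 CPM in mutants. For both genes the values of the genotypes were interleaved.

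The transcription factor gene crc was the most abundant member, with RNA at 1009.8 and 849 CPM in wild-type flies and at 864, 1096 and 869 CPM in mutants. Its footprints were at 105, 164 and 136 CPM in wild-type flies and at 144, 132 and 148 CPM in mutants, all 3 inside the wild-type range. Xbp1 RNA was at 494 and 449 CPM in wild-type flies and at 449, 497 and 428 CPM in mutants. Footprints on Xbp1 were at 166, 170.3 and 177 CPM in wild-type flies and at 191, 162 and 144 CPM in mutants, a mutant range that enclosed the wild-type one. PPP1R15 RNA was at 95.5 and 95.1 CPM in wild-type flies and at 97.2, 112 and 81.5 CPM in mutants. PPP1R15 footprints were at 17.4, 19.5 and 25.2 CPM in wild-type flies and at 21.1, 27.6 and 29.4 CPM in mutants. The lowest mutant value lay below the highest wild-type one, so here too the genotypes overlapped.

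**Figure D1:**
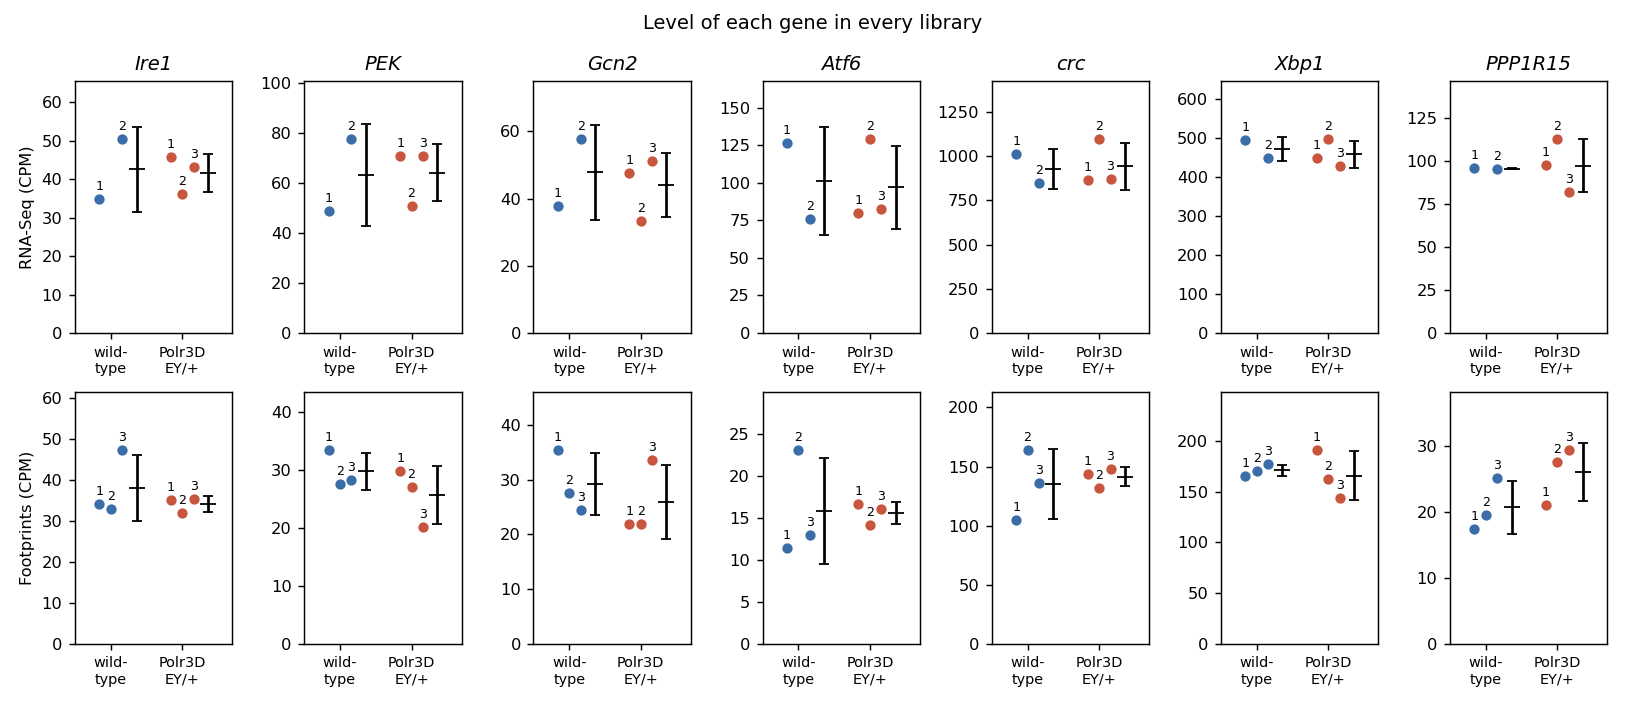
Level of each of the 7 genes in CPM (linear axes from 0) in every library, with RNA-Seq in the upper row and footprints in the lower row; points are libraries numbered by replicate, and the black bar is the mean ± SD. The genotypes overlap in all 14 panels, and crc RNA, at 849 to 1096 CPM, is the highest.

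To compare levels between genes, RNA was divided by transcript length and footprints by coding length. Footprints were counted on whole transcripts, so any on leaders or 3' UTRs are included in the values per coding kb. On this scale crc had the highest mean RNA, at 479 CPM per kb, at percentile 97.8 of the 9937 protein-coding genes with a mean of at least 10 RNA counts. Xbp1 followed at 217 CPM per kb, PPP1R15 at 60.3 and Atf6 at 35.0, with no overlap of library values between these neighbours. PEK, at 14.2 CPM per kb, Ire1, at 10.4, and Gcn2, at 8.28, came last, and each overlapped its neighbour among these kinases. The order of footprints per coding kb differed at the top, with Xbp1 at 173 CPM per kb and crc at 123. PPP1R15 was at 24.5 CPM per coding kb, and the remaining members at 5.76 to 11.2, where the libraries of Atf6 overlapped those of Ire1, PEK and Gcn2. Atf6 stood at percentile 69.4 of those 9937 genes for RNA. For footprints it stood at percentile 12.4 of a different set, the 7661 protein-coding genes with a mean of at least 10 footprint counts.

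The first comparison asked whether the Polr3D mutation changed the RNA or the footprints of these regulators. None of the 7 passed the test for RNA, for footprints or for translation efficiency, which is the change in footprints beyond the change in RNA. The test was DESeq2's Wald test over all genes, called at an adjusted p under 0.1, on 10 libraries without the wild-type replicate 3 footprints. By this test 1.02% of 13253 genes were called in RNA, 0.362% of 14368 in footprints and 0.303% of 13533 in translation efficiency. Its model has a term for replicate number, and replicate 3 held only mutant libraries. Mutant replicate 3 therefore entered the genotype changes only through its ratio of footprints to RNA, not through its levels. At an unadjusted p under 0.05, DESeq2 gave 0 members in each of the 3 contrasts, and edgeR's quasi-likelihood test gave 1 in footprints and 0 in the RNA and translation efficiency contrasts, and called none after adjustment. That gene was PPP1R15, at an edgeR p of 0.043 and an adjusted p of 0.96. The count of members whose genotypes did not overlap in CPM was 0 in RNA-Seq, beside 9.55% of 7624 genes, and 0 in Ribo-Seq, beside 12.1%.

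The intervals show what sizes of change these data leave unresolved. In RNA the log2 changes of the members ran from -0.29 to 0.06, with a median of 0.01 beside 0.00 over all genes tested. The narrowest interval was that of Xbp1, a log2 change of 0.02 with a 95% interval of -0.25 to 0.29, and the widest that of Atf6, -0.04 with an interval of -0.71 to 0.62. For crc RNA the log2 change was 0.01, with an interval of -0.37 to 0.39. In footprints Gcn2 had the lowest log2 change, -0.45 ± 0.35 (SE), and PPP1R15 the highest, 0.57 ± 0.32 (SE, unadjusted p = 0.077). In footprints crc changed by 0.12 (log2) with an interval of -0.31 to 0.54, and Xbp1 by 0.05 with an interval of -0.26 to 0.37.

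**Figure D2:**
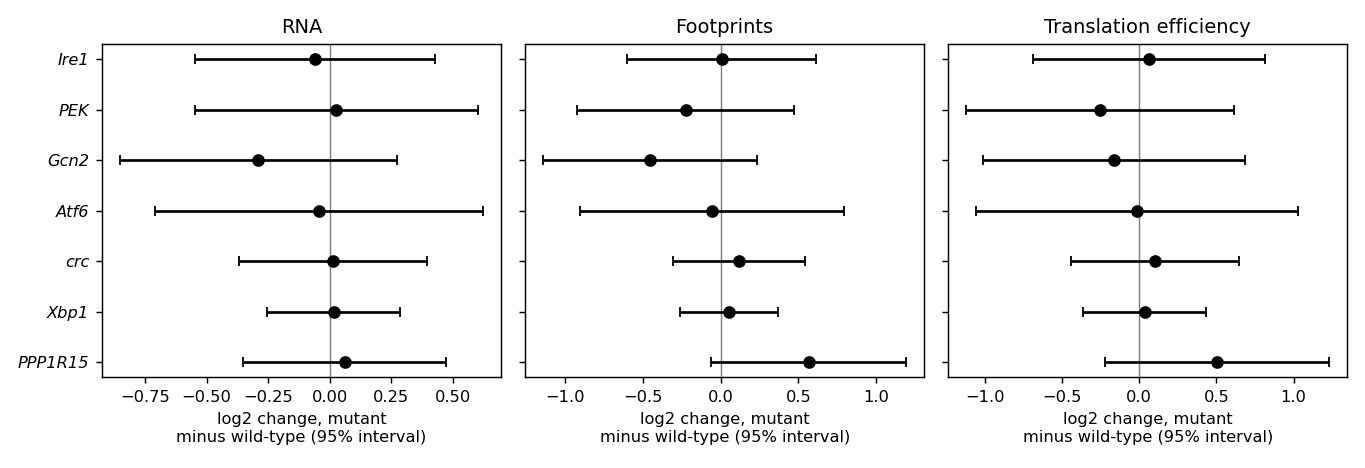
Log2 change of mutant against wild-type flies for each gene in RNA, footprints and translation efficiency; points are DESeq2 estimates and bars 95% intervals. All 21 intervals include 0, and PPP1R15 has the highest estimates in footprints, 0.57, and in translation efficiency, 0.50.

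Translation efficiency was also compared replicate by replicate, as the log2 ratio of footprint CPM to RNA CPM, each plus 0.5. For PPP1R15 this log2 ratio was -2.42 and -2.26 in wild-type replicates 1 and 2 and -2.18, -2.01 and -1.45 in mutant replicates 1 to 3. All 3 mutant values lay above both wild-type ones, a separation shown by 17.0% of 7624 genes and by no other member. The difference in this log2 ratio was 0.46, with p = 0.20 in a two-sided exact permutation test, the smallest p that 3 replicates against 2 can give, and an adjusted p of 1 over the 9 tests of this kind. For crc the log2 ratios were -3.26 and -2.37 in wild-type flies and -2.58, -3.05 and -2.55 in mutants. For Xbp1 they were -1.57 and -1.40 in wild-type flies and -1.23, -1.61 and -1.57 in mutants, so neither transcription factor separated the genotypes.

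Within each genotype, footprints were then compared with RNA, relative to the typical gene. In wild-type flies 5 of the 7 members were lower in footprints than in RNA, where 24.7% of 11304 genes were lower and 26.3% higher, and no member was higher. In the mutants 6 of 7 were lower, where 28.1% of 11582 genes were lower and 29.2% higher. The median log2 ratio of the members was -1.27 in wild-type flies and -1.24 in mutants, beside 0.03 and 0.05 over all genes tested.

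The members fell over a wide range. The mRNA of crc was 6.07-fold lower in footprints than in RNA in wild-type flies (log2 -2.60 ± 0.22, SE, DESeq2 adjusted p = 3.2e-31) and 5.65-fold lower in mutants. For Atf6 the log2 values were -2.40 ± 0.41 (SE) in wild-type flies and -2.41 ± 0.33 in mutants. The wild-type value of Atf6 differed between its replicates, being -1.50 without replicate 1 and -3.27 without replicate 2, and was called in both cases. For PPP1R15 the log2 values were -2.16 ± 0.30 (SE) and -1.65 ± 0.22. Xbp1 was lower by a smaller amount, with log2 values of -1.27 ± 0.16 (SE) and -1.24 ± 0.13. The ER kinase PEK was at -0.82 ± 0.34 (SE, DESeq2 adjusted p = 0.037) in wild-type flies, a call that ended without wild-type replicate 2 (-0.33, adjusted p = 0.62), and at -1.08 ± 0.28 in mutants. Gcn2 was called in mutants alone (log2 -0.54 ± 0.27, DESeq2 adjusted p = 0.087), and leaving out any 1 mutant replicate ended that call (adjusted p = 0.13 to 0.43). The difference between the genotypes is the translation efficiency change above, for which Gcn2 was not called. Ire1 stood near the typical gene, at -0.12 ± 0.30 (SE) and -0.06 ± 0.24, and was not called in either genotype.

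An offset for coding and transcript length left the same direction for all 7 members. With it 6 members were lower in wild-type flies, beside 25.2% of 10766 genes, and 6 in mutants, beside 28.5% of 11013 genes, Ire1 being the exception in both. The offset moved Xbp1, whose coding sequence makes up 45.6% of its transcript length, to 1.55-fold lower in wild-type flies and 1.51-fold lower in mutants. It left crc at 4.91-fold and 4.58-fold lower, Atf6 at 5.85-fold and 5.92-fold lower, and PPP1R15 at 3.75-fold and 2.65-fold lower. The leaders of crc and PPP1R15 averaged 364 nt each, at percentile 79.3 of 9937 genes for both, and that of Atf6 136 nt, at percentile 49.2. Those of Gcn2, Xbp1, Ire1 and PEK averaged 331, 328, 277 and 228 nt, and the median gene had 139 nt.

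**Figure D3:**
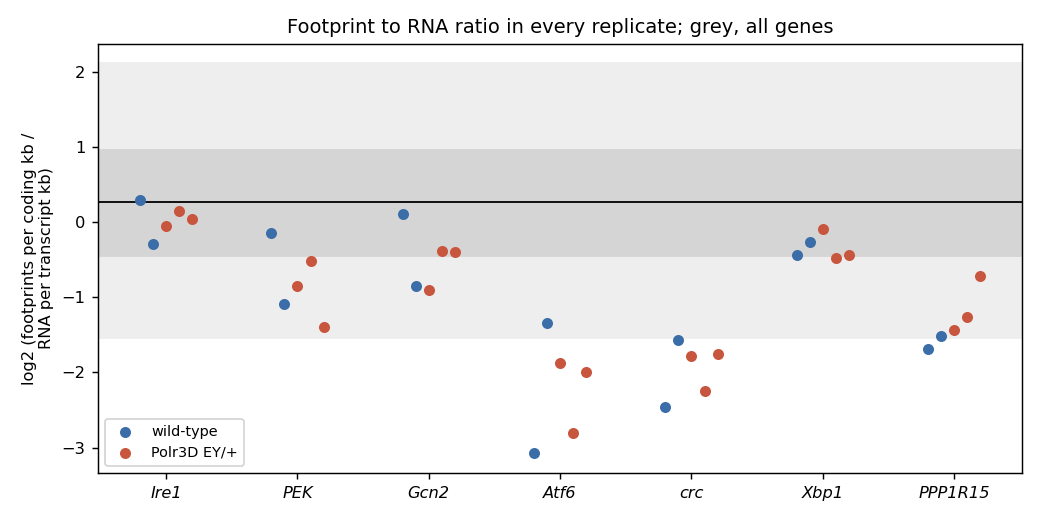
Log2 ratio of footprints per coding kb to RNA per transcript kb for each gene in the 5 replicates with both assays (points, coloured by genotype); the line is the median of 7624 genes, 0.27, the dark band their middle 50% and the pale band their middle 90%. All crc values lie between -2.46 and -1.57, below both bands, and all Ire1 values lie in the dark band.

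Transcript usage was examined because crc, Xbp1, Atf6, Gcn2 and PEK have several annotated transcripts. Salmon divides fragments of shared sequence between transcripts by a statistical model, so each share is an estimate, and the Wilson 95% intervals given here cover counting error only. On crc, the transcript crc-RA carried 87.8% to 89.8% of RNA counts. The transcript crc-RB, with a leader of 1148 nt against 289 nt in crc-RA and a protein of 298 against 381 residues, carried 7.61% to 8.85% of RNA counts but 24.3% to 36.3% of footprint counts. The lowest of those footprint shares, in wild-type replicate 2, was 45 of 185 counts with an interval of 18.7% to 31.0%, above every RNA share. Footprints were counted on whole transcripts, so any on the longer leader of crc-RB are part of its share. The part of the leader and of the estimation in this share was not tested, so it does not show which protein was made. The footprint share of crc-RB was 28.6% ± 6.66 (SD, n = 3) in wild-type flies and 28.7% ± 1.77 (SD, n = 3) in mutants, a difference within the SD. In RNA the shares of crc-RA, crc-RB, crc-RF, Atf6-RA and Atf6-RC did not overlap between genotypes, 5 of the 14 transcripts of members with several, beside 19.1% of 15288 transcripts, and shares of 1 gene depend on each other. The RNA share of crc-RB was 7.61% and 8.10% in wild-type flies and 8.63%, 8.37% and 8.85% in mutants, and that of crc-RF was 1.32% and 1.38% in wild-type flies and 1.93%, 2.33% and 2.28% in mutants. These differences were not tested.

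The other crc transcripts with the 289-nt leader, crc-RA and crc-RF, were not separated reliably in footprints. In wild-type replicate 2 crc-RF had 136 footprint counts and crc-RA 0, while in the other 5 libraries crc-RF had 0 and crc-RA 100 to 291. Summed, they held 63.7% to 73.5% of crc footprints in all 6 libraries. A DESeq2 fit of single transcripts called the footprints of crc-RF lower in mutants (log2 -8.62, adjusted p = 0.027), in which 3.21% of 25544 transcripts were called. That call rested on the single library.

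Xbp1-RE is the annotated transcript from which 23 nt, 2R:21144506-21144528 in assembly BDGP6.54, have been removed, the exon interval that Ire1 is known to excise, and it encodes 498 residues against 307 in Xbp1-RD. It took 7.74% and 8.92% of Xbp1 RNA counts in wild-type flies and 9.32%, 8.49% and 8.79% in mutants. The means were 8.33% ± 0.83 (SD, n = 2) and 8.87% ± 0.42 (SD, n = 3), a difference of 0.54 percentage points with p = 0.60 (two-sided exact permutation test, adjusted p = 1). In footprints it was given 0 counts in 5 of 6 libraries, which held 171 to 518 Xbp1 counts each, and 188 of 232 counts, 81.0% with an interval of 75.5% to 85.6%, in wild-type replicate 3. That library was outside the DESeq2 fit, and the change of assignment was not accompanied by a change of the gene total, which was 177 CPM there.

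Among the sensors, footprints were assigned to fewer transcripts than RNA. Gcn2-RA, with a 3' UTR of 636 nt, held 31.3% to 61.7% of Gcn2 RNA and 0 of 251 footprints, and Gcn2-RB, with the same coding length and a 3' UTR of 183 nt, held the rest. Their leaders are also equal in length, at 331 nt, so footprints on the coding sequence may not tell these transcripts apart. Atf6-RA and Atf6-RC held 46.4% to 56.1% and 43.1% to 51.2% of Atf6 RNA, but 139 of 143 footprints were on Atf6-RC, the one with a 3' UTR of 164 nt rather than 726 nt. PEK-RA held 57.3% to 70.2% of PEK RNA and 255 of 262 footprints. The part of the estimation in these shares was not tested, so they do not show which transcripts were translated.

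**Figure D4:**
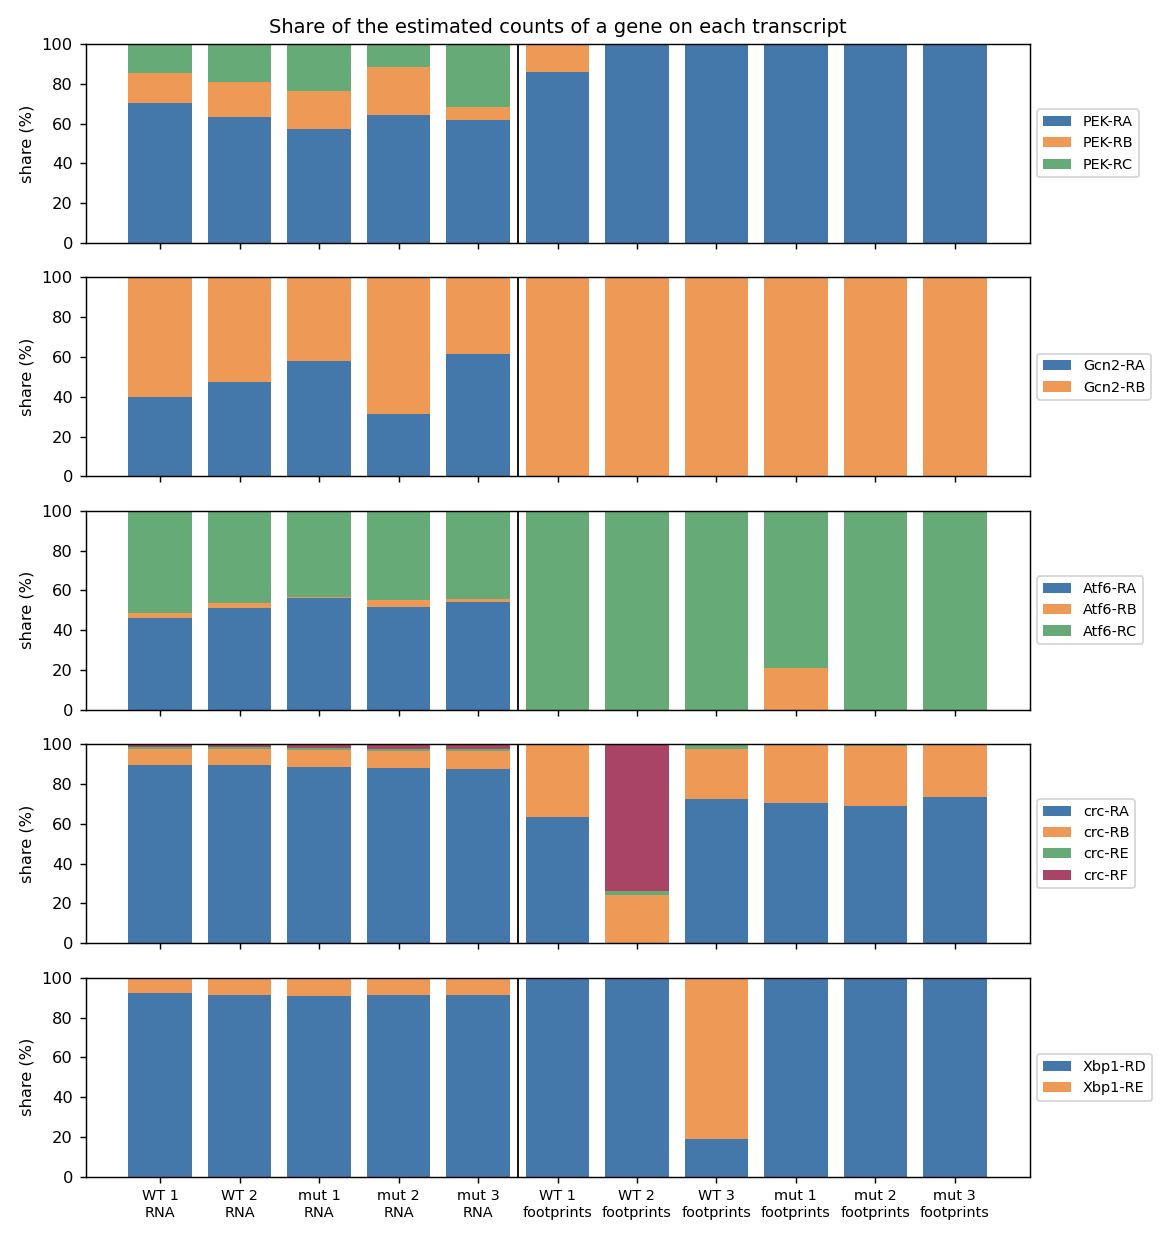
Share of the estimated counts of a gene on each annotated transcript (stacked bars, percent) in every library, RNA-Seq to the left of the line and footprints to the right. The crc-RB share is 7.61% to 8.85% in RNA and 24.3% to 36.3% in footprints, and wild-type replicates 2 and 3 differ from the rest for crc-RF and Xbp1-RE.

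RNA levels of the members also differed between libraries along a division that did not follow genotype. Wild-type replicate 1 and mutant replicate 2 lay together on the first principal component of the RNA-Seq libraries, which took 54.0% of the variance over 7624 genes, so this division was defined from the data. The mRNAs of Gcn2, PEK and Ire1, of 4034 to 5504 nt, were lower in these libraries, by 0.55, 0.55 and 0.38 on the log2 scale. Those of Atf6, crc, PPP1R15 and Xbp1, of 1597 to 2824 nt, were higher, by 0.69, 0.29, 0.19 and 0.17. For 6 of the 7 members the libraries did not overlap across this division, PPP1R15 being the exception, but 61.3% of 7624 genes were also separated. Over those genes the median difference went from 0.20 in the shortest of 5 equal groups of transcripts to -0.27 in the longest, so the kinases lay below the median even of the longest group, with Ire1, PEK and Gcn2 at percentiles 10.45, 1.93 and 2.05 of all genes. The other 4 members lay above the medians of the groups that hold their lengths, Atf6 farthest, at percentile 99.7.

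**Figure D5:**
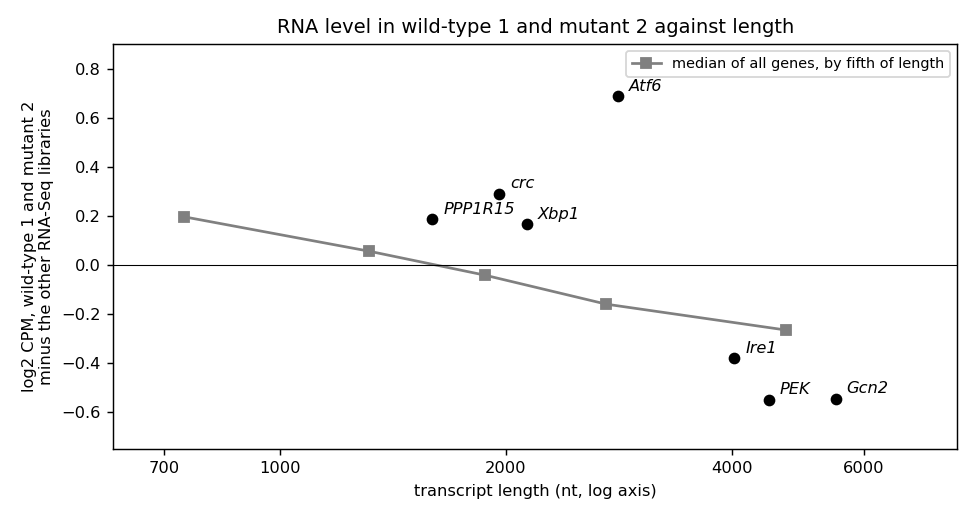
Difference in log2 CPM between wild-type replicate 1 with mutant replicate 2 and the other 3 RNA-Seq libraries (vertical axis) against transcript length in nt (logarithmic axis); black points are the 7 genes and grey squares the medians of all genes in 5 equal groups by length. The 3 kinases lie between -0.55 and -0.38, and Atf6 is highest at 0.69.

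The genotypes were also compared within each side of that division. Mutant replicate 2 minus wild-type replicate 1 gave log2 RNA differences of -0.19 for Gcn2 to 0.23 for PPP1R15, and mutant replicates 1 and 3 minus wild-type replicate 2 gave -0.22 for Gcn2 to 0.10 for Atf6. Gcn2 was lower in mutants in both, Atf6 and crc were higher in both, and Ire1, PEK, Xbp1 and PPP1R15 differed in sign between them. With 1 wild-type library on each side, neither difference has a replicate check. Putting this division in the model in place of the replicate number called 0 members in RNA, footprints or translation efficiency.

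The pathway partners, downstream genes and ER folding machinery were then described as lists. Of 40 such genes in the table, DESeq2 called 0 in RNA, footprints or translation efficiency between genotypes, with 1, 0 and 1 at an unadjusted p under 0.05, and edgeR called 0 with 1 each. Their median log2 changes were -0.02, -0.02 and -0.03. The lowest p was that of Nmdmc, a mitochondrial folate enzyme and a target of crc, whose RNA log2 change was -0.50 ± 0.16 (SE, DESeq2 adjusted p = 0.19). The RNA log2 change of Hsc70-3, the ER chaperone BiP, was -0.04 ± 0.18 (SE), with a 95% interval of -0.38 to 0.31. By quantitative PCR, a different measure, the study reported significantly increased BiP mRNA in whole females of this mutant. For Ero1L, an oxidase of the ER, the RNA log2 change was -0.18 ± 0.21 (SE).

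The other uncalled changes that were largest in their lists were small beside their errors in most cases. In RNA they were 0.12 ± 0.24 (log2, SE) for eIF2D, 0.12 ± 0.18 for MCTS1, 0.11 ± 0.20 for RtcB, -0.08 ± 0.22 for Uggt, -0.11 ± 0.22 for Edem2, -0.10 ± 0.22 for Der-2 and -0.24 ± 0.14 for aay. In footprints Edem1, which helps to extract misfolded glycoproteins, had the lowest estimate, -0.73 ± 0.41, and Der-1 the highest, 0.44 ± 0.26. The others in footprints were eIF2D at -0.37 ± 0.34, eIF2Balpha at 0.21 ± 0.34, RtcB at 0.21 ± 0.25, Archease at -0.11 ± 0.39, Sil1 at -0.33 ± 0.29, Uggt at -0.18 ± 0.23, Ldh at -0.33 ± 0.33 and aay at 0.07 ± 0.16. In translation efficiency Nmdmc was at 0.55 ± 0.24, Ldh at -0.40 ± 0.41, Edem1 at -0.64 ± 0.49, Der-1 at 0.41 ± 0.32, eIF2D at -0.50 ± 0.41 and Sil1 at -0.26 ± 0.34, and eIF2Balpha, Ero1L, RtcB and Archease lay between -0.08 and 0.25.

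In footprints against RNA, 19 of the 40 genes were higher and 5 lower in wild-type flies, and 19 higher and 7 lower in mutants. With each library scaled to its protein-coding total in place of DESeq2's size factors, these counts were 14 higher and 10 lower in wild-type flies and 12 higher and 12 lower in mutants. Scaling to protein-coding totals moved the median of all genes from 0.03 to -0.20 in wild-type flies and from 0.05 to -0.22 in mutants. The calls over all genes then went from 2968 higher and 2792 lower to 2352 and 3421 in wild-type flies, and from 3379 and 3258 to 2657 and 3994 in mutants. No called gene of the members or lists changed direction by this scaling, by TMM factors or in edgeR, and the members called were as many. Among the lists, eIF2alpha, CG1703, Cnx99A and P58IPK lost their calls in both genotypes with protein-coding totals, sip3 in wild-type flies, and DENR, Edem2 and Der-2 in mutants.

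Of 11 ER chaperones and folding enzymes, 9 were higher in both genotypes and Ero1L was lower in both, with Sil1 also lower in mutants. Over all genes tested, 26.3% were higher and 24.7% lower in wild-type flies, and 29.2% and 28.1% in mutants. The values of the lists are without the length offset. Uggt, the glucosyltransferase of folding quality control, was highest, with a log2 value of 1.98 ± 0.23 (SE) in wild-type flies and 1.88 ± 0.19 in mutants, followed by the disulphide isomerase ERp60 at 1.82 ± 0.17 and 1.79 ± 0.14, and Hsc70-3 was at 1.66 ± 0.19 and 1.66 ± 0.15. Gp93, Calr, Pdi and CaBP1 lay at 1.11 to 1.39 in wild-type flies, and Cnx99A and P58IPK, an inhibitor of PEK in mammals, at 0.56 and 0.47. The list median was 1.26 in wild-type flies, beside 0.03 over all genes tested.

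Among 13 partners in eIF2 phosphorylation and crc translation, 5 were higher and 2 lower in each genotype, beside 26.3% of all genes higher and 24.7% lower in wild-type flies and 29.2% and 28.1% in mutants. These shares apply likewise to the lists of degradation genes and crc targets below. The higher ones in wild-type flies were NAT1 (log2 1.01 ± 0.22, SE), DENR, a factor for reinitiation (0.59 ± 0.19), eIF2beta (0.59 ± 0.15), CG1703 (0.46 ± 0.19) and eIF2alpha itself (0.44 ± 0.14). The lower ones were eIF2D, a noncanonical initiation factor, at -0.91 ± 0.31 in wild-type flies and -1.40 ± 0.26 in mutants, and eIF2Bdelta at -0.82 ± 0.27 and -0.67 ± 0.21. The tRNA ligase RtcB and its cofactor Archease, which in animals rejoin the cut Xbp1 mRNA, were not called, at 0.25 ± 0.24 and 0.33 ± 0.37 in wild-type flies.

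Of 8 genes of ER-associated degradation, 3 were higher and 1 lower in wild-type flies, and 3 higher and 2 lower in mutants. The ATPase TER94 was higher in both, at 1.15 ± 0.13 (SE) and 1.07 ± 0.10, as was Edem2 at 0.77 ± 0.25 and 0.61 ± 0.21, and Edem1 was lower in both, at -0.79 ± 0.37 and -1.43 ± 0.32. The calls of sip3, at 0.50 ± 0.23, were made in wild-type flies alone, and those of Der-2, at 0.55 ± 0.20, and Herp, at -0.36 ± 0.16, in mutants alone, without a called difference between genotypes. Of 6 targets of crc, Ldh (1.68 ± 0.32 and 1.28 ± 0.26) and Nmdmc (0.59 ± 0.19 and 1.14 ± 0.15) were higher and AsnS (-0.76 ± 0.17 and -0.72 ± 0.14) lower. The medians in wild-type flies were 0.09 for the partners, 0.07 for degradation and 0.07 for the targets of crc.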

How the data were processed

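Whole flies of both genotypes were measured by RNA-Seq and Ribo-Seq. The labels do not say whether replicates came from separate groups of flies. Whether the p-values cover the spread between groups of flies is therefore not known. The authors trimmed reads with Cutadapt and quantified them with Salmon on a decoy-aware BDGP6 index including noncoding RNAs. The deposited values are estimated counts per transcript, as whole numbers without normalization. Of 28367 features, 28345 matched Ensembl release 115 (assembly BDGP6.54). The 22 others were each kept as an entry of their own among the 14405 genes. Lengths come from that annotation, which is later than the index.

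Counts summed per gene were fitted with DESeq2 (1.42.0, R 4.3.3) on 10 libraries in a model of replicate number plus genotype, assay and the interaction of the latter, as in the study's methods, leaving 4 residual degrees of freedom. Calls used a Benjamini-Hochberg adjusted p under 0.1. Footprints of wild-type replicate 3 stayed out of the fit, since the study removed that replicate, and its RNA-Seq library was not analysed here. Replicate number 3 thus held mutant libraries alone, and their levels did not inform the genotype changes, only their ratio of footprints to RNA. edgeR (4.0.16) was an alternative, as were other scalings, filters, offsets and left-out libraries. Division of the RNA-Seq libraries and the leaving out of single libraries of 1 assay were added after seeing the data. The fit was also run on simulated counts with known changes. Those counts had no effect of replicate or of that division, so the run does not test the fit for either. Intervals are estimate ± 1.96 SE. CPM used the protein-coding total. Means, ratios and permutation tests used Python 3.11.15 with scipy 1.17.1.

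Named genes were the 7 members, Polr3D, pathway genes called in any contrast, the 2 largest changes by list and contrast, and the 2 genes most like each member. The members and lists were chosen with earlier results of these data known. Gcn1, Psat and nos had no match. Sequences were not used here.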

Additional observations from a re-analysis of the deposited data

How the results depend on the processing

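None of the 7 members was called between genotypes in any of 308 values from the alternatives on gene sums, where the lowest adjusted p was 0.34 and 10 values had none. The members had 143 (Atf6) to 1579 (Xbp1) footprint counts in all. The lower footprints of crc, Xbp1, Atf6 and PPP1R15 were called in both genotypes under every alternative on gene sums. The causes of the changes below were not tested.

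Calls over all genes were fewer by most alternatives. In RNA, footprints and translation efficiency in turn, they were 135, 52 and 41 in the reported fit, 5, 2 and 0 by edgeR, and 23, 10 and 1 when genes averaging under 10 counts in either assay were dropped. Fitting each assay alone gave 3 in RNA and 0 in footprints. With all 11 libraries there were 66 in RNA and 10 in translation efficiency. With the division of the RNA-Seq libraries in place of the replicate number there were 260 in footprints and 62 in translation efficiency. Without the RNA-Seq library of mutant replicate 1 there were 4, 24 and 2, and without the Ribo-Seq library of mutant replicate 2 there were 16 in footprints and 15 in translation efficiency. Leaving out each replicate in turn gave 5 to 50, 2 to 33 and 0 to 19, and 3644 to 5724 for footprints against RNA in wild-type flies. Single transcripts gave 512, 821 and 540, with 12597 and 14171 for footprints against RNA in wild-type and mutant flies, and 1 member, crc, called in footprints.

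The study's model treats the replicate number as a batch. Same-numbered libraries did not show it by deviating together (r = 0.05, -0.15 and -0.04 in Ribo-Seq, and -0.38 and -0.61 in RNA-Seq, where the deviations of the 2 wild-type libraries are opposite by construction). With no replicate block, 41 genes were called in RNA and 7 in translation efficiency, and the Xbp1 log2 changes were -0.047 in RNA and -0.0044 in footprints.

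Uncalled log2 changes between genotypes changed sign as follows. In RNA, PEK was at -0.037 with each assay alone, -0.049 with the division and -0.092 without mutant replicate 1 RNA, Atf6 at 0.048, 0.067 and 0.22 in the same settings, and Xbp1 at -0.011 with 11 libraries and -0.017 with the division. In footprints, Ire1 was at -0.0094 with protein-coding totals, -0.0050 with the filter, -0.14 with 11 libraries and -0.044 without mutant replicate 1 RNA, Atf6 at 0.17 without mutant replicate 2 footprints, and Xbp1 at -0.041 with 11 libraries and -0.0085 with the division. In translation efficiency with 11 libraries, Ire1 was at -0.046, Gcn2 at 0.022, Atf6 at 0.026 and Xbp1 at -0.031. Without mutant replicate 1 RNA, Gcn2 was at 0.020 and Xbp1 at -0.057, without mutant replicate 2 footprints Atf6 was at 0.21, and with TMM factors Atf6 was at 5.4e-05. For footprints against RNA, Ire1 in mutants was at 0.084 without mutant replicate 1 RNA, where Gcn2 was at -0.33 and uncalled, and Gcn2 in wild-type flies was called at -0.67 with the length offset and -0.61 with the division.

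As single transcripts, RNA log2 changes were -0.090 for PEK-RA, -0.059 for PEK-RC, 0.17 for Atf6-RA, 0.85 for Atf6-RB and -0.075 for crc-RE. Footprint changes were 2.79 for Atf6-RB, -1.34 for crc-RE, -8.62 for crc-RF and -0.28 for Xbp1-RE. Translation efficiency changes were 0.0051 for Gcn2-RB, 1.94 for Atf6-RB, 0.057 for Atf6-RC, -0.11 for crc-RB, -1.27 for crc-RE, -9.14 for crc-RF and -0.37 for Xbp1-RE. Footprints against RNA were 0.23 for Gcn2-RB in each genotype and 1.60 for crc-RF in wild-type flies.

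Leaving out each replicate in turn, RNA changes ran from -0.58 to 0.59 for Atf6, -0.71 to 0.18 for Gcn2, -0.41 to 0.32 for Ire1, -0.42 to 0.52 for PEK, -0.10 to 0.21 for PPP1R15, -0.073 to 0.12 for Xbp1 and -0.20 to 0.25 for crc. Footprint changes ran from -0.34 to 0.26 for Atf6, -0.21 to 0.23 for Ire1 and -0.10 to 0.35 for crc. Translation efficiency changes ran from -0.93 to 0.84 for Atf6, -0.64 to 0.33 for Gcn2, -0.23 to 0.36 for Ire1, -0.72 to 0.23 for PEK, -0.074 to 0.12 for Xbp1 and -0.35 to 0.55 for crc. Footprints against RNA ran from -0.85 to 0.12 for Gcn2, -0.40 to 0.18 for Ire1, -1.28 to -0.33 for PEK and -3.27 to -1.50 for Atf6 in wild-type flies, and from -0.64 to -0.36 for Gcn2 and -0.10 to 0.014 for Ire1 in mutants.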

Other observations

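The genes whose log2 CPM over the 11 libraries, centred on its own mean, lay nearest to each member were found by root mean square difference among 7623 other genes. This is a description over libraries that share assays and depth, with no test. Xbp1 had the closest neighbours, CG42360 at 0.07 and prod at 0.07, where the median gene lay at 0.69. For crc they were ova at 0.13 and Trf4-2 at 0.15, beside a median of 1.31, and for Atf6 they were MED26 at 0.19 and crc itself at 0.20, beside 1.26. PPP1R15 lay nearest mEFTu2 and Rtca, both at 0.16. Among the kinases, Ire1 lay nearest Iml1 at 0.08 and Larp7 at 0.09, PEK nearest Doa at 0.12 and cnk at 0.13, and Gcn2 nearest Su(dx) and CG2218, both at 0.15.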
